A study of Mus musculus with 24 samples.

Results

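The integrin and laminin genes were taken by symbol: Itga with a number (and b where present) or with a lone letter, Itgb with a number, and Lama, Lamb or Lamc with a number. Of 55487 genes in the count table, 36 taken by this rule are described, namely 18 Itga, 8 Itgb, 5 Lama, 3 Lamb and 2 Lamc genes. The lower limit on counts left 29 of them for testing. The 7 that were not tested were Itgad, Itgae, Itgal, Itgam, Itgax, Itgb6 and Lama1, which held at most 10 counts in any library.

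Integrins are cell surface receptors made of an alpha and a beta subunit, and the pair decides which matrix protein is bound. Laminins are trimers of an alpha, a beta and a gamma chain that polymerize into basement membranes, where integrins and dystroglycan hold them to the cell. Cultured fibroblasts use integrins to attach to fibronectin, collagen, vitronectin and laminin, and they secrete laminin chains themselves.

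The RNA came from mouse embryonic fibroblasts (MEFs), either wild type (WT) or labelled AMPK KO, in which the study's methods give both catalytic subunit genes, Prkaa1 and Prkaa2, as knocked out. Each genotype was treated with the solvent DMSO, with MK-8722, which activates AMPK allosterically, or with torin1, which blocks the MTOR kinase. This gave 6 groups of 4 libraries: WT DMSO, WT MK-8722, WT torin1, AMPK KO DMSO, AMPK KO MK-8722 and AMPK KO torin1. The stated aim was the interplay of the genotype with both drugs. Doses and times were not in the labels. Nothing in the labels says that more than 1 cell line stood for a genotype.

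Every group held 1 library of each of 4 passages, 12 to 15 for WT and 16 to 19 for AMPK KO, so genotype, passage and cell line cannot be told apart. The replicates of a group were thus of different passages, and the p-values measure the spread between these passages, not between separate cell lines or embryos. Library totals ran from 26900240 to 34192685 estimated counts and the RNA integrity number from 9.7 to 10.0. Of the fibroblast markers Col1a1, Col1a2, Pdgfra, Pdgfrb, Thy1, Vim, Dcn and Lum, all but Dcn and Lum passed 1 CPM (counts scaled to a common library total) in at least 1 library. Their summed level was 7509 to 11675 CPM in WT DMSO and 2559 to 3243 CPM in AMPK KO DMSO, and Col1a2 alone averaged 2503 against 28.4 CPM. Leukocyte markers summed to at most 4.67 CPM in any library and the macrophage marker Adgre1 was at 0 in all 24. Prkaa1 averaged 80.9 CPM in WT DMSO and 70.9 CPM in AMPK KO DMSO, so transcript totals did not serve as a check of the knockout label.

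The sequences upstream of 4 of the genes are shown because the results turn on these genes: Itga2 changed most with torin1, Itgav was lower with torin1 in WT and lower in AMPK KO DMSO than in WT DMSO, Itgb1 had the highest level, and Lama5 was higher in AMPK KO. Each is the RefSeq window of 250 bases before the transcript start in GRCm38.p6, on the strand of the gene, with matches to the searched motifs in capitals. The windows lie at chr13:114932101-114932350 on the minus strand for Itga2, chr2:83724147-83724396 on the plus strand for Itgav, chr8:128685404-128685653 on the plus strand for Itgb1 and chr2:180225860-180226109 on the minus strand for Lama5.
Itga2: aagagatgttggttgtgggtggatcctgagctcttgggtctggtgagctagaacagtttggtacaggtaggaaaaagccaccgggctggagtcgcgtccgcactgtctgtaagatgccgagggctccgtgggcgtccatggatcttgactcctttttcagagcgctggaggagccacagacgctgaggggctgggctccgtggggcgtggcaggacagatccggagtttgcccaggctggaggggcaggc
Itgav: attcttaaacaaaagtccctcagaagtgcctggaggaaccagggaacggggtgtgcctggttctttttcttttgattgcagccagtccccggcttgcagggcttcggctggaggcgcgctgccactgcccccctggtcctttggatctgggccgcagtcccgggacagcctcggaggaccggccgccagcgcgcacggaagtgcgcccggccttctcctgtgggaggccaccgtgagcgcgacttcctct
Itgb1: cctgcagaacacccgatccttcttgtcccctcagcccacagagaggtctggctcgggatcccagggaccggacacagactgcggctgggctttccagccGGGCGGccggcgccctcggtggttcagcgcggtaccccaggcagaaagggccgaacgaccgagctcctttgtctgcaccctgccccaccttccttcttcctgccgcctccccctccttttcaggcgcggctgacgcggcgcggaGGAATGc
Lama5: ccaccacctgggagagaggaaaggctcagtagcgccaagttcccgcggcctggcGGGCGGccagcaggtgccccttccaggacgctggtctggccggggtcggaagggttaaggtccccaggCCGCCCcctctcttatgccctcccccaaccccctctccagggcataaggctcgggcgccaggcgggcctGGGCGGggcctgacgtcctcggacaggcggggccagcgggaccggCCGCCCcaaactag

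Motifs were searched on both strands in the 26 windows that RefSeq gave for 23 of the 36 genes. CACGTG, the core bound by TFEB and other E-box factors, was in 0 of the 26 windows, beside 6.02% of all 32851 windows. The TEAD motif CATTCC was in 3 windows, those of Itga10, Itgb1 and Lamb3, beside 12.6% of all. The GC box GGGCGG was in 9 windows, beside 32.7% of all, and the AP-1 motif TGANTCA in 1, that of Itgax, beside 6.75%. The Lama5 window held 4 GC boxes and the Itgb1 window held 1 GC box and 1 TEAD motif, while those of Itga2 and Itgav held none of the 4 motifs. These are matches of letters within the windows only.

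Levels between genes were compared per length, as TPM (abundance per transcript length, scaled to a common total) summed over the transcripts of a gene. Itgb1, the beta subunit shared by most fibroblast integrins, stood first with 628 ± 17.0 (SD, n = 4) TPM in WT DMSO and 594 ± 3.497 TPM in AMPK KO DMSO. Itgav, whose protein binds vitronectin and other ligands with an RGD motif, followed with 205 ± 14.6 TPM in WT DMSO. In both genotypes Itgb1 and Itgav each lay clear of the gene next below in all 4 DMSO libraries. Below them in WT DMSO the laminin receptor subunit Itga6 (112 ± 14.0 TPM), Lamc1 (101 ± 2.61 TPM), the laminin receptor subunit Itga3 (96.9 ± 6.06 TPM) and Lamb1 (93.6 ± 6.77 TPM) followed. Each of these overlapped its neighbour in that order, as did 29 of the 35 neighbouring pairs in WT DMSO and 25 of 35 in AMPK KO DMSO.

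The order depended on how length was taken into account. The Itgav level drew 53.3% of its TPM from transcripts under 1000 bases, and on the scale of CPM per kilobase of the longest transcript, chosen after seeing the data, Itgav was 4th, behind Itgb1, Lamb1 and Lamc1.

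**Figure D1:**
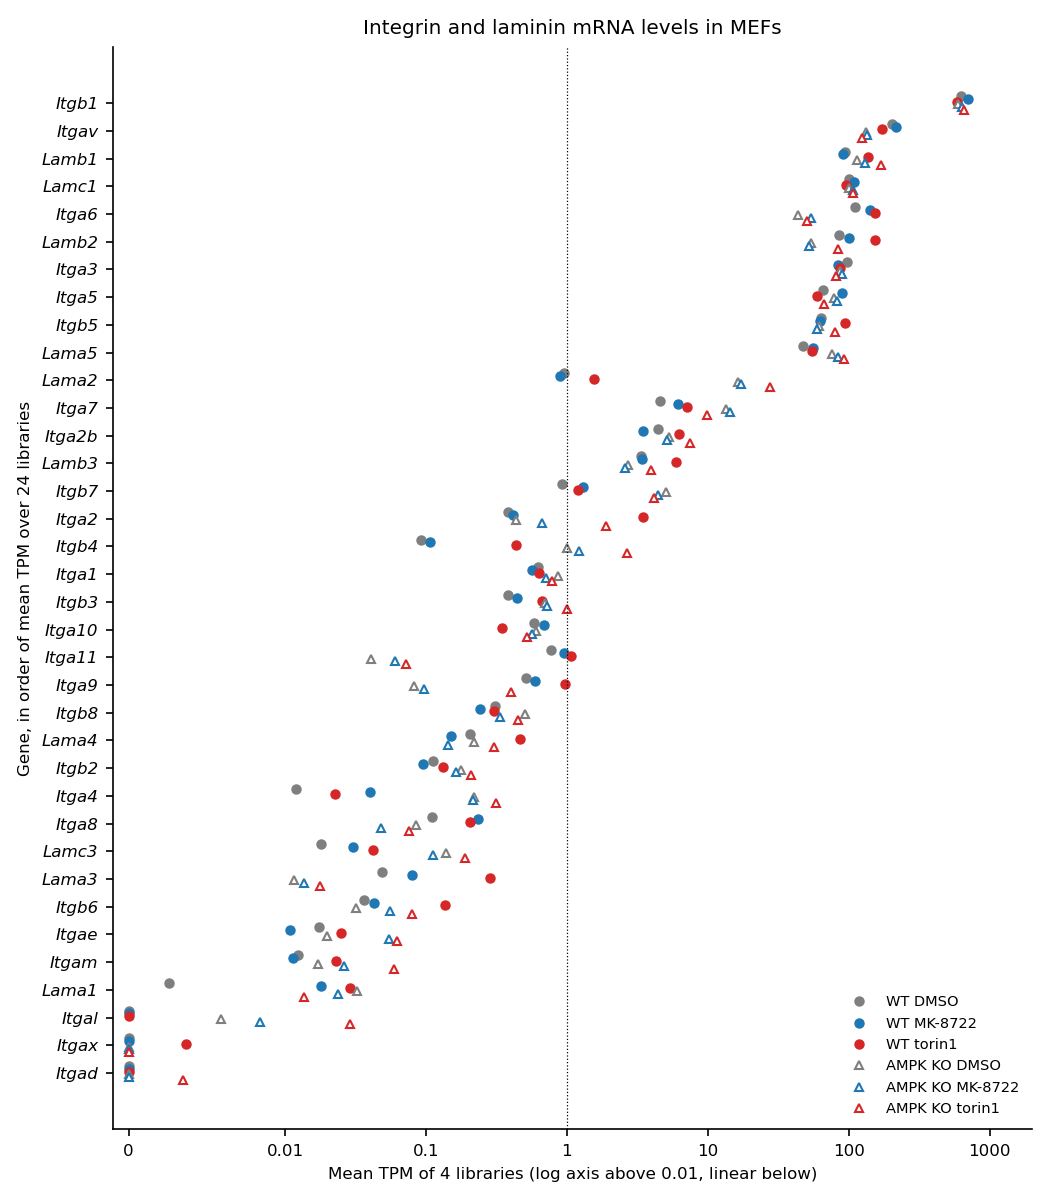
Mean TPM of 4 libraries on the horizontal axis, logarithmic above 0.01, for each of the 36 genes in order of mean TPM over all 24 libraries. Filled circles stand for WT groups and open triangles for AMPK KO groups, coloured by treatment, and the dotted line marks 1 TPM. Itgb1 is alone at the right, and Lama2 and Itga4 lie further right in AMPK KO than in WT.

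Within a chain class the shares of TPM were uneven. Itgb1 made up 90.6% of all Itgb TPM in WT DMSO and 89.6% in AMPK KO DMSO. Among alpha chains of laminin, Lama5, the broadly expressed chain, held 97.5% of TPM in WT DMSO and 81.9% in AMPK KO DMSO, and Lama2, the chain of muscle and nerve basement membranes, held 1.94% and 17.8%. Lamb1 held 51.4% of Lamb TPM in WT DMSO and 66.8% in AMPK KO DMSO, with Lamb2 at 46.8% and 31.7%. Among Itga genes, Itgav held 41.7% and 36.8%, Itga6 22.7% and 12.0%, Itga3 19.7% and 23.8%, and Itga5 13.4% and 21.5%. Transcripts under 1000 bases gave 53.3% of the TPM of Itgav, 40.9% for Lamb2 and 4.61% for Lamb1. These shares thus depend on how length was taken into account. Over all libraries, CPM per kilobase of the longest transcript averaged 72.4 for Lamb1 and 34.5 for Lamb2. The shares are of mRNA and hold no measure of protein.

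Of 24 known alpha and beta pairs, both mRNAs reached 1 TPM in every library for 6 pairs in each DMSO and MK-8722 group. These were Itgb1 with Itga3, Itga5, Itga6, Itga7 or Itgav, and Itgav with Itgb5. In WT torin1 there were 7, with Itga2 and Itgb1 added, and in AMPK KO torin1 there were 8, with Itga2 and Itgb1 and with Itga6 and Itgb4 added. No pair with Itgb2 or Itgb7, the beta subunits of leukocyte integrins, reached this level in all libraries of a group.

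A gene was called when edgeR's quasi-likelihood F test gave an adjusted p under 0.05 over all 15828 genes tested and the fold change (FC) was at least 1.2 in either direction. Gene positions are those of the GENCODE annotation of GRCm38. Values per library are CPM after scaling of libraries with the trimmed mean of M values (TMM), in the order of replicates 1 to 4, which pairs nothing between groups. The MK-8722 and torin1 comparisons of a genotype share their DMSO libraries, so their values are given side by side without a test between them. In bulk RNA, fewer cells of a type and less RNA per cell cannot be told apart.

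With torin1, most of the called genes rose. In WT, 17 of the 29 genes tested were called, where 47.6% of all genes were, and in AMPK KO 10 were, where 43.5% of all genes were. In WT, 14 were called higher, where 26.6% of all genes were, and 3 were called lower, where 21.1% were. In AMPK KO, 8 were called higher (25.9% of all genes) and 2 lower (17.6% of all genes). The median log2 fold change of the 29 genes was 0.49 in WT, against 0.04 over all genes, and 0.29 in AMPK KO, against 0.06. Scaling by library size alone moved the splits to 17 higher and 1 lower in WT and to 10 higher and 1 lower in AMPK KO, with the median of all genes at 0.14 and 0.12. Of all 15828 genes, that scaling called 5174 higher and 2493 lower in WT, and 4764 higher and 2237 lower in AMPK KO. Integrins made up 8 of the higher and 3 of the lower calls in WT, and laminins the other 6 higher calls, of 20 integrins and 9 laminins tested.

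Laminin chains were among the genes that rose in both genotypes. Lamb2, a beta chain (chr9:108479736-108490530, plus strand), measured 192, 220, 174 and 181 CPM in WT DMSO and 363, 392, 342 and 301 CPM in WT torin1. The groups did not overlap, and edgeR gave a log2 fold change of 0.87 ± 0.11 (SE, at an adjusted p of 1.6e-07 by edgeR). In AMPK KO, Lamb2 measured 113, 96.0, 118 and 134 CPM with DMSO and 173, 149, 202 and 176 CPM with torin1. Again every torin1 library lay above every DMSO library, with a log2 fold change of 0.61 ± 0.11 (SE, at an adjusted p of 3.2e-05 by edgeR).

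Lamb1, the other beta chain of high level (chr12:31265234-31329644, plus strand), measured 326, 335, 330 and 381 CPM in WT DMSO and 436, 413, 460 and 548 CPM in WT torin1. It measured 393, 406, 353 and 405 CPM in AMPK KO DMSO and 518, 540, 548 and 543 CPM in AMPK KO torin1. The treated libraries were higher without overlap in both genotypes. The log2 fold change was 0.44 ± 0.079 (SE, at an adjusted p of 4.5e-05 by edgeR) in WT and 0.47 ± 0.079 (SE, at an adjusted p of 2.3e-05 by edgeR) in AMPK KO. Lamb3, a chain of epithelial laminins, rose from 8.003–9.45 to 12.9–16.2 CPM in WT (log2 fold change 0.77 ± 0.13, SE, at an adjusted p of 1.3e-05 by edgeR) and from 5.70–8.28 to 7.25–11.7 CPM in AMPK KO (log2 fold change 0.45 ± 0.13, SE, at an adjusted p of 0.0052 by edgeR), where the groups overlapped.

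Lama2 (chr10:26980036-27619758, minus strand) measured 3.30, 4.72, 2.38 and 2.32 CPM in WT DMSO and 3.99, 6.73, 5.38 and 5.37 CPM in WT torin1, ranges that overlapped. The log2 fold change in WT was 0.77 ± 0.20 (SE, at an adjusted p of 0.0020 by edgeR). Starting from a much higher level in AMPK KO, it measured 59.96, 51.0, 67.4 and 57.6 CPM with DMSO and 101.6, 85.3, 92.2 and 99.1 CPM with torin1. Here the groups were apart, with a log2 fold change of 0.68 ± 0.13 (SE, at an adjusted p of 7.9e-05 by edgeR). Lama5, the most abundant alpha chain, was not called: its log2 fold change was 0.17 in WT (adjusted p = 0.043, edgeR) and 0.23 in AMPK KO (adjusted p = 0.0063, edgeR), both under FC 1.2.

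Lamc1, the gamma chain of most laminins, was not called in any comparison. It measured 407, 407, 398 and 412 CPM in WT DMSO and 362, 403, 352 and 344 CPM in WT torin1, with a log2 difference of -0.15 ± 0.046 (SE, at an adjusted p of 0.0058 by edgeR) that stayed under FC 1.2.

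Of the low-level laminin chains, Lama3 and Lama4 were called higher in WT. Lama3, the alpha chain of epithelial laminins, had 7, 9, 14 and 6 counts in the WT DMSO libraries and 32, 46, 51 and 51 in WT torin1, which did not overlap (log2 fold change 2.19 ± 0.32, SE, at an adjusted p of 3.1e-06 by edgeR). In AMPK KO DMSO Lama3 had 0 to 3 counts. Lama4, a vascular chain, overlapped between the groups, with a log2 fold change of 1.09 ± 0.45 (SE, at an adjusted p of 0.039 by edgeR), and this call was lost without any 1 of WT torin1 replicates 2 or 3 or WT DMSO replicates 1, 3 or 4, where the adjusted p reached 0.24, and when only the groups compared were fitted. Of the epithelial markers, Krt18 was 0.288–0.366 CPM in WT DMSO and 0.916–1.09 CPM in WT torin1, Epcam 0.648–0.878 and 0.945–1.59 CPM, and Krt8 averaged 0.0582 and 0.257 CPM. The sum of the 5 epithelial markers, mostly Krt19, was 49.8 to 69.1 CPM in WT DMSO and 46.2 to 63.3 CPM in WT torin1, and 19.1 to 24.3 CPM in AMPK KO DMSO and 17.2 to 26.9 CPM in AMPK KO torin1. Their part in the changes of Lama3, Lamb3 and Itgb4 was not tested.

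**Figure D2:**
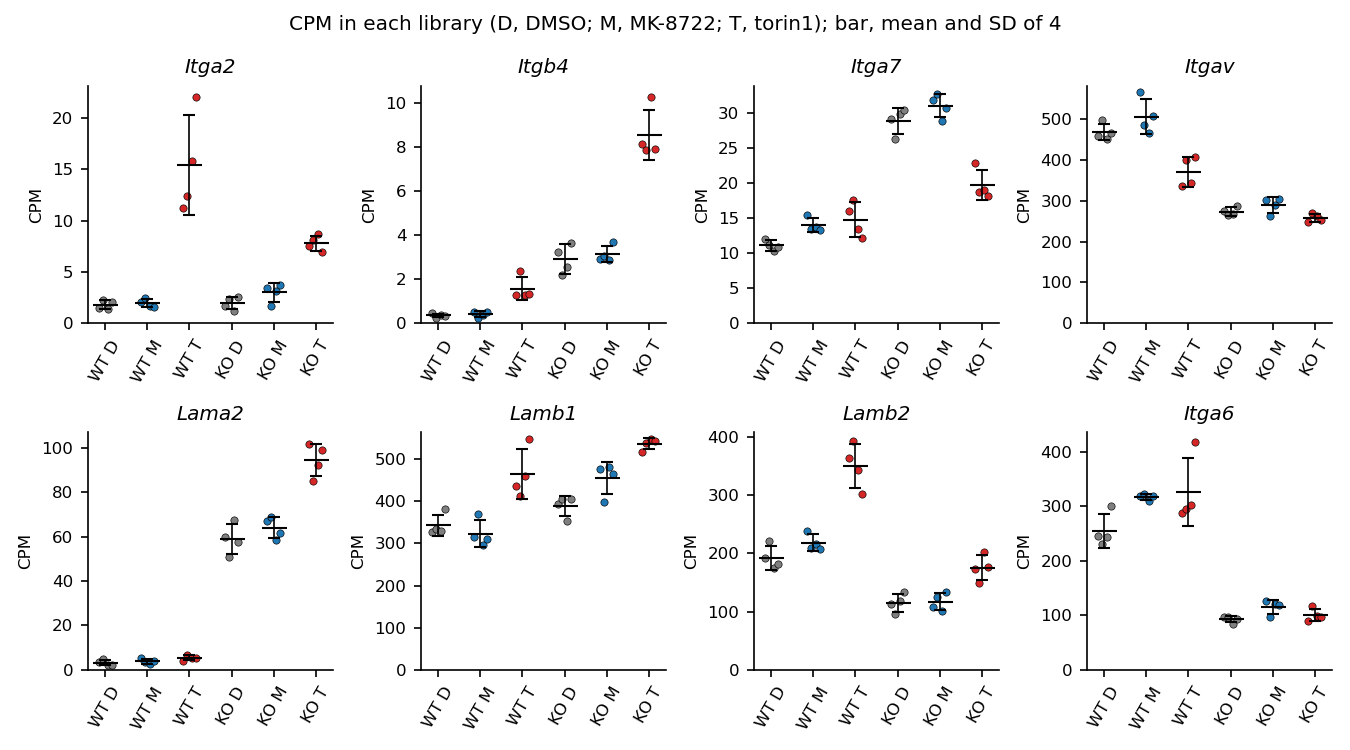
CPM in each library for 8 genes, each panel with its own axis from 0, with points for single libraries and bars for the mean and SD of 4. D is DMSO, M is MK-8722 and T is torin1. Itga2 and Itgb4 rise with torin1 in both genotypes, Itga6 is lower in AMPK KO, Itga7 moves in opposite directions, and Lama2 separates the genotypes.

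Among the integrins, the collagen receptor subunit Itga2 (chr13:114833081-114932100, minus strand) changed most with torin1. It measured 1.51, 2.30, 1.37 and 2.07 CPM in WT DMSO and 11.2, 12.4, 15.8 and 22.1 CPM in WT torin1, 1.81 ± 0.446 against 15.4 ± 4.85 CPM. Every treated library was far above every control library, and the log2 fold change was 3.08 ± 0.24 (SE, at an adjusted p of 1.5e-10 by edgeR), or 8.46-fold. The AMPK KO values were 1.73, 2.36, 1.22 and 2.52 CPM with DMSO and 7.53, 8.07, 8.69 and 6.99 CPM with torin1. The groups were again apart, with a log2 fold change of 1.99 ± 0.24 (SE, at an adjusted p of 2e-07 by edgeR), or 3.98-fold. Itga10, another collagen receptor subunit, fell in WT from 1.76, 2.08, 1.48 and 1.51 CPM to 0.943, 1.36, 1.06 and 0.640 CPM (log2 fold change -0.76 ± 0.24, SE, at an adjusted p of 0.0081 by edgeR) without overlap.

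Itgb4, the partner of Itga6 in hemidesmosomes (chr11:115974709-116008412, plus strand), was low in WT, at 0.456, 0.256, 0.396 and 0.314 CPM with DMSO and 1.31, 2.35, 1.27 and 1.34 CPM with torin1. All 4 treated libraries were higher, and the log2 fold change was 2.13 ± 0.27 (SE, at an adjusted p of 3.4e-07 by edgeR). Levels in AMPK KO were higher, at 3.24, 2.17, 2.53 and 3.66 CPM with DMSO and 8.11, 7.86, 10.3 and 7.91 CPM with torin1. The groups did not overlap, and the log2 fold change was 1.55 ± 0.18 (SE, at an adjusted p of 1.4e-07 by edgeR). Itgb5, which pairs with Itgav to bind vitronectin, rose from 110–125 to 147–183 CPM in WT (log2 fold change 0.49 ± 0.059, SE, at an adjusted p of 1.7e-07 by edgeR). In AMPK KO it was 102.4–111 CPM with DMSO and 120–133 CPM with torin1, a log2 difference of 0.24 (adjusted p = 0.0014, edgeR) that stayed under FC 1.2.

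The laminin receptor subunits Itga7, Itga6 and Itga3 did not move together. Itga7, the subunit of muscle laminin receptors (chr10:128933818-128958282, plus strand), measured 12.1, 11.2, 10.3 and 10.8 CPM in WT DMSO and 16.1, 17.6, 13.4 and 12.2 CPM in WT torin1. It rose there, with a log2 fold change of 0.41 ± 0.096 (SE, at an adjusted p of 0.00072 by edgeR). The same gene in AMPK KO measured 29.2, 26.3, 29.8 and 30.5 CPM with DMSO and 22.8, 18.7, 19.1 and 18.2 CPM with torin1. It fell, with all treated libraries below the controls and a log2 fold change of -0.55 ± 0.089 (SE, at an adjusted p of 1.2e-05 by edgeR).

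Itga6 (chr2:71745616-71858416, plus strand) measured 245, 231, 244 and 301 CPM in WT DMSO and 287, 296, 303 and 418 CPM in WT torin1. The ranges overlapped, and replicate 4, of passage 12 in both groups, was highest in both. Within each of the 4 passages Itga6 was higher with torin1, by a log2 ratio of 0.24 to 0.48. The log2 fold change was 0.35 ± 0.10 (SE, at an adjusted p of 0.0048 by edgeR), and without WT torin1 replicate 4 it was 0.20 with an adjusted p of 0.053 from edgeR. In AMPK KO the log2 difference was 0.11 (adjusted p = 0.39, edgeR).

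Itga3 (chr11:95044474-95076801, minus strand) measured 284, 277, 278 and 314 CPM in WT DMSO and 239, 241, 217 and 262 CPM in WT torin1, without overlap. The log2 fold change in WT was -0.27 ± 0.091 (SE, at an adjusted p of 0.014 by edgeR), just past FC 1.2. This call was lost without WT DMSO replicate 4, WT torin1 replicate 1 or WT torin1 replicate 3, with adjusted p-values of up to 0.090, and also with library size alone and with a limit of at least 10 counts in every library.

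Itgav and Itga5, subunits of vitronectin and fibronectin receptors, were each called lower in 1 genotype. Itgav (chr2:83724397-83806916, plus strand) measured 459, 498, 451 and 466 CPM in WT DMSO and 337, 400, 343 and 407 CPM in WT torin1. All treated libraries were lower, with a log2 fold change of -0.33 ± 0.063 (SE, at an adjusted p of 7.4e-05 by edgeR), which was -0.24 and not called with library size alone. In AMPK KO it measured 274, 266, 267 and 289 CPM with DMSO and 248, 271, 262 and 254 CPM with torin1, ranges that overlapped, with a log2 difference of -0.08 ± 0.064 (SE, at an adjusted p of 0.28 by edgeR). Itga5 fell in AMPK KO, from 218.7, 220, 180 and 200 CPM to 142, 185, 159 and 172 CPM. Those groups overlapped, with a log2 fold change of -0.31 ± 0.11 (SE, at an adjusted p of 0.022 by edgeR), and the call was lost without AMPK KO DMSO replicate 1 or 2 or AMPK KO torin1 replicate 1, with adjusted p-values of up to 0.078, and with library size alone.

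Itgb1 itself stayed under FC 1.2. It measured 1375, 1467, 1397 and 1437 CPM in WT DMSO and 1129, 1270, 1256 and 1268 CPM in WT torin1. The treated libraries were lower without overlap, by a log2 difference of -0.21 ± 0.051 (SE, at an adjusted p of 0.0012 by edgeR). The AMPK KO libraries measured 1279, 1278, 1237 and 1258 CPM with DMSO and 1221, 1330, 1278 and 1352 CPM with torin1, with a log2 difference of 0.04 (adjusted p = 0.57, edgeR). The interaction of torin1 with genotype was 0.24 ± 0.072 (SE, at an adjusted p of 0.034 by edgeR) for Itgb1, also under FC 1.2.

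Itga9, a subunit that binds tenascin and other ligands with Itgb1, was low throughout and rose with torin1 in both genotypes. It measured 1.33, 1.499, 1.33 and 2.01 CPM in WT DMSO and 2.76, 2.44, 2.25 and 2.72 CPM in WT torin1 (log2 fold change 0.71 ± 0.18, SE, at an adjusted p of 0.0019 by edgeR). The AMPK KO libraries measured 0.196, 0.291, 0.305 and 0.180 CPM with DMSO and 0.676, 0.690, 0.481 and 0.763 CPM with torin1 (log2 fold change 1.41 ± 0.26, SE, at an adjusted p of 6.5e-05 by edgeR). Neither pair of groups overlapped. The WT call was lost with an offset for transcript length (adjusted p = 0.088, edgeR). The span of Itga9 overlaps that of the antisense gene Gm2415, which averaged 4.65 CPM against 1.09 CPM for Itga9. The use of strand in counting is not given in the sources used here, and whether exons of both genes overlap was not examined. It is thus not known whether reads of both genes were fully told apart.

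Of the other genes called, Itga2b, the alpha subunit of the platelet fibrinogen receptor, rose from 4.63–5.56 to 5.79–7.98 CPM in WT (log2 fold change 0.54 ± 0.12, SE, at an adjusted p of 0.00062 by edgeR) and from 5.02–6.27 to 6.14–8.14 CPM in AMPK KO (log2 fold change 0.34 ± 0.12, SE, at an adjusted p of 0.020 by edgeR). With an offset for transcript length neither was called, at adjusted p-values of 0.12 in WT and 0.11 in AMPK KO from edgeR. Of 3 platelet and megakaryocyte markers, Pf4 and Gp9 were at 0 in all 24 libraries, and Gp1bb was 0.471 to 1.24 CPM in WT DMSO, 0.256 to 0.793 CPM in WT torin1, 0.366 to 0.85 CPM in AMPK KO DMSO and 0.277 to 0.794 CPM in AMPK KO torin1. The AMPK KO call of Itga2b was also lost in 5 of 8 fits that left out 1 library, namely without DMSO replicate 1 or 2 or torin1 replicate 2, 3 or 4, with adjusted p-values of up to 0.099. Itga8, an RGD-binding subunit of smooth muscle and kidney, was called in WT with overlapping groups at 0.144–0.534 and 0.502–1.22 CPM (log2 fold change 1.03 ± 0.43, SE, at an adjusted p of 0.044 by edgeR), and lost without WT DMSO replicate 1 or 3 or WT torin1 replicate 4 (adjusted p of up to 0.24) and in 4 other fits, DESeq2 among them.

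**Figure D3:**
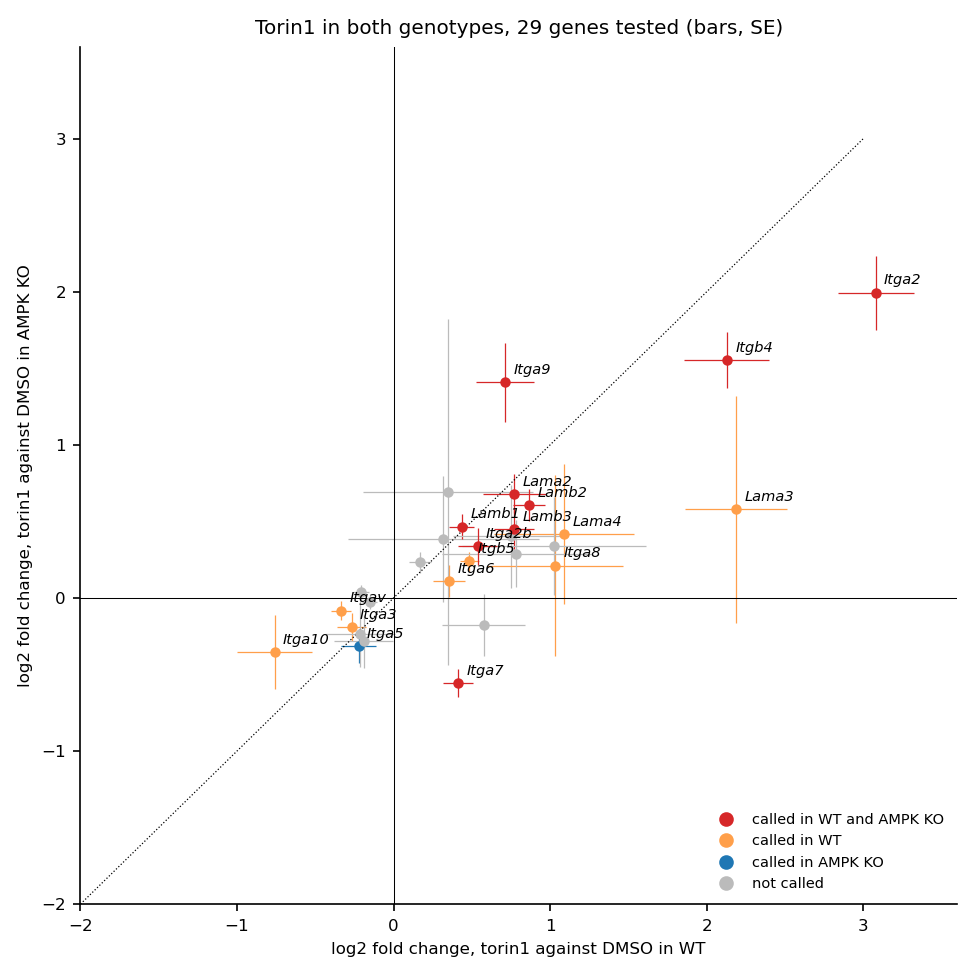
Log2 fold change with torin1 in WT on the horizontal axis and in AMPK KO on the vertical axis for the 29 genes tested, with bars for the SE and a dotted line of equal change. Red marks genes called in both genotypes, orange in WT, blue in AMPK KO and grey in neither. Itga2 lies at 3.08 and 1.99, and Itga7 is the red point with opposite signs.

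Across genotypes, 8 genes were called higher with torin1 in both, namely Itga2, Itga2b, Itga9, Itgb4, Lama2, Lamb1, Lamb2 and Lamb3. Of all genes, 26.6% were called higher in WT and 25.9% in AMPK KO, and the share called higher in both was not counted. Itga6, Itga8, Itgb5, Lama3 and Lama4 were called higher in WT alone, Itga3, Itga10 and Itgav lower in WT alone, and Itga5 lower in AMPK KO alone. A call in 1 genotype is not a difference between genotypes, which the interaction tested directly. The interaction, the change in AMPK KO minus that in WT, was called for 2 genes, both lower, where 2.92% of all genes were called lower, 4.15% higher and 7.07% in either direction.

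These genes were Itga7 and Itga2. For Itga7 the interaction was -0.97 ± 0.13 (SE, at an adjusted p of 7.3e-05 by edgeR), from a rise in WT and a fall in AMPK KO, and it was called in every fit that left out 1 library. For Itga2 it was -1.09 ± 0.34 (SE, at an adjusted p of 0.046 by edgeR), a smaller rise in AMPK KO, and it was lost in 10 of the 16 fits that left out 1 library, with adjusted p-values of up to 0.099, with a replicate block, at an adjusted p of 0.058, and with an offset for transcript length.

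With MK-8722 in WT, 3 of the 29 genes were called, all higher, where 10.0% of all genes were called higher, 5.66% lower and 15.7% in either direction. All 3 were integrin alpha subunits, Itga5, Itga6 and Itga7, and the 9 laminin genes tested gave 0 calls by edgeR, with 3 at an unadjusted p under 0.05, and 0 by DESeq2. The median log2 fold change of the 29 genes was 0.18, against -0.00 over all genes. An unadjusted p under 0.05 by edgeR was found for 11 of the 29 and for 5989 of all 15828 genes.

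Itga5 (chr15:103344286-103366763, minus strand) measured 185, 203, 172 and 179 CPM in WT DMSO and 303, 217, 233 and 244 CPM in WT MK-8722. Every treated library was above every control library, with a log2 fold change of 0.43 ± 0.11 (SE, at an adjusted p of 0.0058 by edgeR), or 1.35-fold. In AMPK KO it measured 218.7, 220, 180 and 200 CPM with DMSO and 236, 189, 250 and 206 CPM with MK-8722, and the ranges overlapped. The log2 difference there was 0.11 (adjusted p = 0.71, edgeR), and the interaction was -0.32 (adjusted p = 0.18, edgeR, with a 95% interval of -0.66 to 0.01).

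Itga6 measured 320, 322, 310 and 319 CPM in WT MK-8722, all above the WT DMSO libraries, with a log2 fold change of 0.32 ± 0.10 (SE, at an adjusted p of 0.024 by edgeR). The call was lost without WT DMSO replicate 1, 2 or 3 or WT MK-8722 replicate 4, with adjusted p-values of up to 0.10. In AMPK KO it measured 96.8, 97.4, 84.6 and 93.7 CPM with DMSO and 127, 97.2, 121 and 119 CPM with MK-8722, ranges that overlapped, and it was not called (log2 difference 0.31 ± 0.11, SE, at an adjusted p of 0.11 by edgeR). Within each of the 4 AMPK KO passages Itga6 was higher with MK-8722, by a log2 ratio of 0.20 to 0.39. A block for passage called this rise, as given below. The 95% interval of the interaction was -0.31 to 0.31 on the log2 scale.

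Itga7 measured 15.5, 13.5, 13.7 and 13.3 CPM in WT MK-8722, above all WT DMSO libraries (log2 fold change 0.33 ± 0.098, SE, at an adjusted p of 0.012 by edgeR). Without WT DMSO replicate 3 this was not called (adjusted p = 0.056, edgeR). In AMPK KO MK-8722 it measured 31.9, 32.7, 28.9 and 30.7 CPM against 29.2, 26.3, 29.8 and 30.5 CPM with DMSO, and these ranges overlapped. Lama5 was also higher without overlap in WT MK-8722, at 332, 348, 349 and 340 CPM against 305, 293, 270 and 309 CPM, but its log2 difference of 0.22 ± 0.070 (SE, at an adjusted p of 0.022 by edgeR) stayed under FC 1.2.

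In WT MK-8722, Kdr, the endothelial receptor of VEGF, averaged 6.53 CPM against 0.888 CPM in WT DMSO, and the summed endothelial markers were 4.44 to 8.60 CPM against 0.878 to 1.28 CPM. The other 3 of these markers, Pecam1, Cdh5 and Tek, stayed under 1 CPM in every library, and the part of such cells in the integrin values was not tested. In AMPK KO, MK-8722 gave 0 calls among the 29 genes by edgeR, with 7 at an unadjusted p under 0.05 and 0 calls by DESeq2, where 0.866% of all genes were called higher, 0.695% lower and 1.56% in either direction. An unadjusted p under 0.05 by edgeR was found there for 2610 of all 15828 genes. The MK-8722 interaction gave 0 calls by edgeR, with 4 at an unadjusted p under 0.05 and 1 call by DESeq2, where 5.12% of all genes were called higher, 7.66% lower and 12.8% in either direction. Among all 15828 genes, 4696 had an unadjusted p under 0.05 for this interaction by edgeR. The DESeq2 call was Lamb1, with an interaction of 0.32 and a DESeq2 adjusted p of 0.028, against 0.31 and an adjusted p of 0.057 by edgeR. A block for passage changed these counts. In WT it gave 7 calls, with Itga8, Itgb7 and Lama2 added as higher and Itgb8 as lower, where 2907 of all 15828 genes were called. In AMPK KO it gave 3, with Itga2 (log2 0.62, adjusted p = 0.032, edgeR) and Itga6 (log2 0.31, adjusted p = 0.0033, edgeR) higher and Itgb8 (log2 -0.47, adjusted p = 0.034, edgeR) lower, where 729 of all genes were. For the interaction it gave 4, with Itga3 and Lamb1 higher and Itga5 and Itgb7 lower, where 2785 of all genes were.

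Between the genotypes in DMSO, 9 of the 29 genes were called higher in AMPK KO, where 30.9% of all genes were, and 7 lower, where 26.0% were, 16 in all, where 56.9% were. Scaling by library size alone gave 13 higher and 6 lower, with the median of all genes at 0.15 in place of 0.02. Of all 15828 genes, that scaling called 6073 higher and 2939 lower. Of the 16 genes called, 5 reached the lower limit on counts only in the genotype where they were higher, so their direction was partly set by that limit: Itga4, Itgb2 and Lamc3 in AMPK KO, and Itga11 and Lama3 in WT. The median size of the log2 difference, without its sign, was 0.74 for the 29 genes and 0.41 for all genes. The fibroblast marker sum given above was lower in all 4 AMPK KO DMSO libraries than in any WT DMSO library, and its part in these differences was not tested.

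Lama2 showed the largest rise among genes of at least 1 CPM. It measured 3.30, 4.72, 2.38 and 2.32 CPM in WT DMSO and 59.96, 51.0, 67.4 and 57.6 CPM in AMPK KO DMSO, groups far apart. The log2 difference was 4.22 ± 0.17 (SE, at an adjusted p of 2.4e-16 by edgeR), or 18.7-fold. The skeletal muscle markers summed to 0.722 to 0.805 CPM in WT DMSO and 1.38 to 1.90 CPM in AMPK KO DMSO, nearly all of it Des, with Myod1 and Myog at 0 in all AMPK KO libraries, and their part in the levels of Lama2 and Itga7 was not tested. Lama5 (chr2:180176373-180225859, minus strand) measured 305, 293, 270 and 309 CPM in WT DMSO and 453, 451, 424 and 461 CPM in AMPK KO DMSO. It was higher in AMPK KO without overlap, with a log2 difference of 0.60 ± 0.070 (SE, at an adjusted p of 4.9e-08 by edgeR).

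Lamb2 went the other way, at 113, 96.0, 118 and 134 CPM in AMPK KO DMSO against 192, 220, 174 and 181 CPM in WT DMSO. Its log2 difference was -0.74 ± 0.11 (SE, at an adjusted p of 1.3e-06 by edgeR), without overlap. Lamb1 measured 393, 406, 353 and 405 CPM in AMPK KO DMSO against 326, 335, 330 and 381 CPM in WT DMSO, and Lamc1 measured 389, 374, 370 and 402 CPM against 407, 407, 398 and 412 CPM, and neither was called. Lamb3 was called lower, with overlapping groups and a log2 difference of -0.36 ± 0.13 (SE, at an adjusted p of 0.018 by edgeR), and the call was lost without AMPK KO DMSO replicate 2 or 3 (adjusted p of up to 0.060) and with library size alone.

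Among the chains near the limit of counts, Lamc3 had 4, 0, 1 and 3 counts in WT DMSO and 22, 14, 12 and 16 in AMPK KO DMSO, and was called higher (log2 difference 2.79 ± 0.48, SE, at an adjusted p of 1.4e-05 by edgeR). Lama3 had 7, 9, 14 and 6 counts in WT DMSO and 3, 1, 0 and 1 in AMPK KO DMSO, and was called lower (log2 difference -2.87 ± 0.56, SE, at an adjusted p of 7.6e-05 by edgeR). The groups did not overlap for either gene, and with so few counts and the limit given above the sizes of these differences were imprecise.

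**Figure D4:**
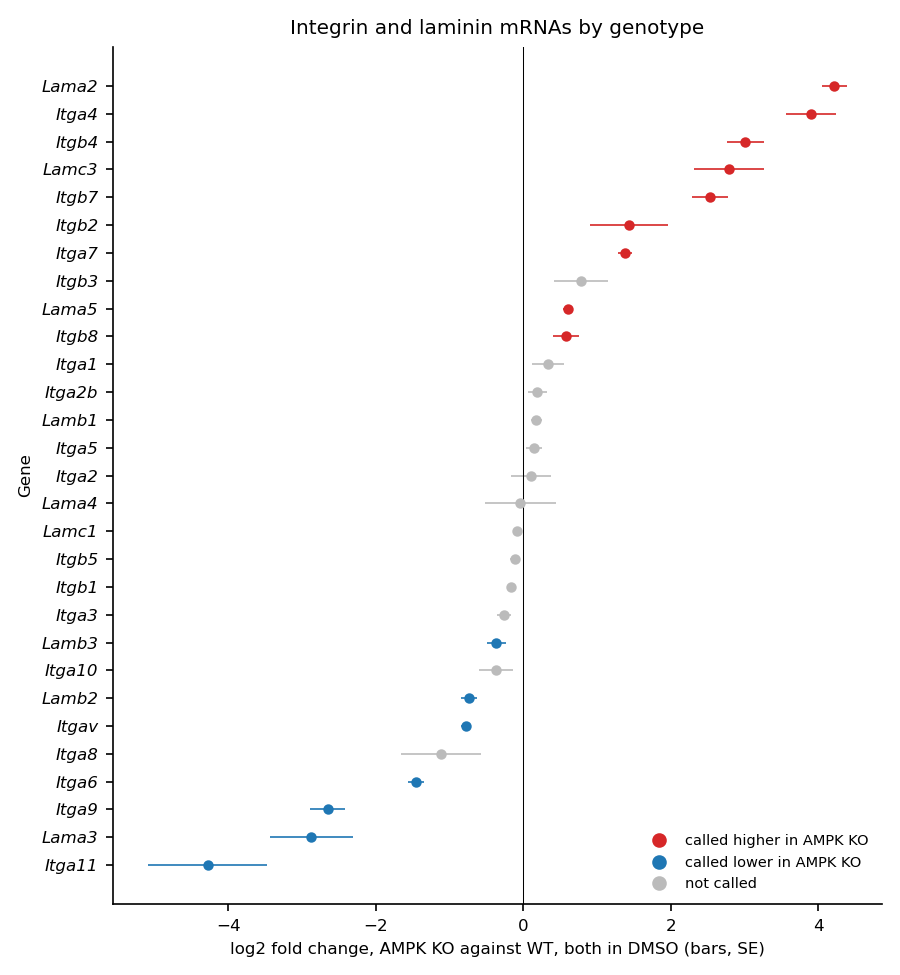
Log2 fold change of AMPK KO against WT, both in DMSO, for the 29 genes tested, with bars for the SE. Red points were called higher in AMPK KO, blue points lower and grey points were not called. Lama2 at 4.22 and Itga11 at -4.28 mark the ends of the range, and Itga11 reached the lower limit on counts only in WT.

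Of the receptors, Itgb4 was 0.456, 0.256, 0.396 and 0.314 CPM in WT DMSO and 3.24, 2.17, 2.53 and 3.66 CPM in AMPK KO DMSO. It was higher without overlap, with a log2 difference of 3.02 ± 0.26 (SE, at an adjusted p of 2.3e-10 by edgeR), or 8.09-fold. The epithelial markers were split. From WT DMSO to AMPK KO DMSO, Epcam averaged 0.744 and 2.15 CPM, Cdh1 0.775 and 1.57 CPM and Krt8 0.0582 and 0.0839 CPM. Krt18 went the other way, at 0.338 and 0.118 CPM, as did Krt19, at 60.1 and 17.8 CPM. Their sum was lower in AMPK KO, as given above. The partner of Itgb4, Itga6, was lower, at 96.8, 97.4, 84.6 and 93.7 CPM against 245, 231, 244 and 301 CPM. The Itga6 groups were also apart, with a log2 difference of -1.45 ± 0.11 (SE, at an adjusted p of 1.5e-11 by edgeR), a level 2.74-fold lower. Itga7 was higher, at 29.2, 26.3, 29.8 and 30.5 CPM against 12.1, 11.2, 10.3 and 10.8 CPM (log2 difference 1.38 ± 0.094, SE, at an adjusted p of 4e-12 by edgeR), and the laminin receptor subunit Itga3 was 205–263 CPM against 277–314 CPM, a log2 difference of -0.26 ± 0.091 (SE, at an adjusted p of 0.014 by edgeR) that stayed just under FC 1.2.

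Itgav measured 274, 266, 267 and 289 CPM in AMPK KO DMSO against 459, 498, 451 and 466 CPM in WT DMSO. All AMPK KO libraries were lower, with a log2 difference of -0.77 ± 0.064 (SE, at an adjusted p of 1.3e-10 by edgeR), a level 1.71-fold lower. Itgb1 differed by a log2 value of -0.17 ± 0.051 (SE, at an adjusted p of 0.0053 by edgeR), also lower without overlap and under FC 1.2. Itga5 overlapped between the genotypes and was not called (adjusted p = 0.26, edgeR).

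Itga9 was lower in AMPK KO, at 0.196, 0.291, 0.305 and 0.180 CPM against 1.33, 1.499, 1.33 and 2.01 CPM (log2 difference -2.65 ± 0.24, SE, at an adjusted p of 7.2e-10 by edgeR), without overlap and with the limit from its antisense gene given above. Itga11, a subunit of a fibroblast collagen receptor, measured 0.131, 0.0647, 0.153 and 0.15 CPM in AMPK KO DMSO against 1.97, 5.56, 1.91 and 0.691 CPM in WT DMSO. Itga11 reached the lower limit on counts only in WT, so its direction was partly set by it. The groups did not overlap, but WT DMSO replicate 2 stood far above the other WT libraries. The log2 difference was -4.28 ± 0.81 (SE, at an adjusted p of 5.4e-05 by edgeR), and without that library it was -3.59 with an adjusted p of 0.00036 from edgeR.

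Of the subunits found mainly in leukocyte integrins, Itgb7, Itga4 and Itgb2 were called higher in AMPK KO from low levels, and the other 5, Itgad, Itgae, Itgal, Itgam and Itgax, were not tested. Itgb7 measured 1.09, 0.841, 0.757 and 1.73 CPM in WT DMSO and 6.38, 6.38, 6.16 and 7.02 CPM in AMPK KO DMSO. The groups were apart, with a log2 difference of 2.53 ± 0.24 (SE, at an adjusted p of 1.6e-09 by edgeR), or 5.79-fold. Its partner Itga4 had 4, 2, 1 and 2 counts in WT DMSO and 35, 31, 42 and 49 in AMPK KO DMSO (log2 difference 3.91 ± 0.34, SE, at an adjusted p of 3.3e-10 by edgeR). Itgb2 had 2 to 4 counts against 5 to 13 (log2 difference 1.44 ± 0.53, SE, at an adjusted p of 0.019 by edgeR) and lost its call without WT DMSO replicate 2 or 4 or AMPK KO DMSO replicate 4 (adjusted p of up to 0.075) and with an offset for transcript length (adjusted p = 0.11, edgeR). Itga4 and Itgb2 reached the lower limit on counts only in AMPK KO, so their direction was partly set by it, as given above. The summed leukocyte markers were 1.98 to 2.85 CPM in WT DMSO and 1.43 to 2.36 CPM in AMPK KO DMSO, mostly Cd68, with Adgre1 at 0 in all libraries. Itgb8, which activates latent TGF-beta with Itgav, was 1.30–1.90 CPM in WT DMSO and 2.01–2.90 CPM in AMPK KO DMSO (log2 difference 0.58 ± 0.18, SE, at an adjusted p of 0.0059 by edgeR).

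Passage could be set beside the values, since each group held 1 library of each passage. WT passage 13 stood apart for 3 genes under all treatments. Itga11 was 5.56 to 7.44 CPM at that passage and 0.691 to 2.90 CPM at the other WT passages. Itga1, the subunit of another collagen receptor, was 3.97 to 4.28 against 1.60 to 3.14 CPM, and Itgb3, the partner of Itgav in a vitronectin receptor, was 2.30 to 4.28 against 0.757 to 2.17 CPM. These ranges did not overlap, and they were noticed after the values were seen. The search covered every passage of both genotypes for the genes of these families averaging at least 1 CPM. How many of all genes stood apart at a passage was not counted. The span of Itga1 overlaps that of Pelo on the same strand, which averaged 19.9 CPM against 3.315 CPM for Itga1. Whether exons of both genes overlap was not examined.

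**Figure D5:**
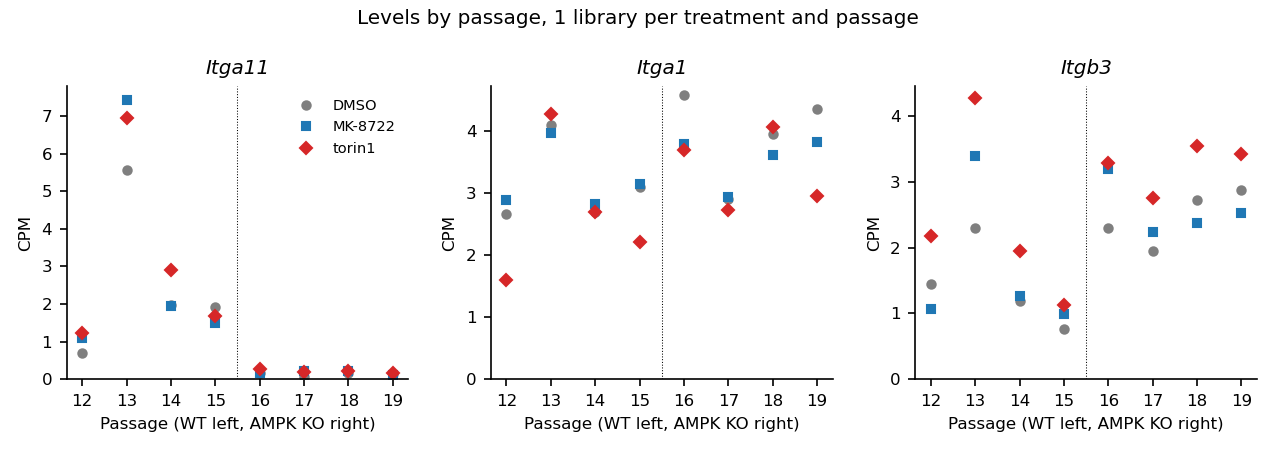
CPM of Itga11, Itga1 and Itgb3 against passage, with WT to the left of the dotted line and AMPK KO to the right. Each symbol is 1 library, with circles for DMSO, squares for MK-8722 and diamonds for torin1. At WT passage 13 all 3 treatments lie above the other WT passages.

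Transcript shares were estimated by the authors' quantification and are described without a test. For Lamb2 a retained-intron transcript of 578 bases held 17.3% ± 0.935 (SD, n = 4) of the TPM of the gene in WT DMSO and 10.2% ± 1.35 in WT torin1, with no overlap between 16.4–18.5% and 8.81–11.4%. In AMPK KO it held 12.2% ± 1.70 with DMSO and 9.34% ± 2.34 with torin1, and these overlapped. The full-length Lamb2 transcript of 5629 bases held 56.8% ± 1.66 in WT DMSO and 62.6% ± 3.12 in WT torin1. For Itga6 a transcript of 2721 bases annotated as not coding held 36.3% ± 0.859 in WT DMSO and 35.0% ± 1.17 in WT torin1.

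The genes around integrins and laminins gave calls in both directions with torin1, beside 26.6% of all genes called higher and 21.1% lower in WT and 25.9% and 17.6% in AMPK KO. Of 27 tested focal adhesion adaptors and kinases, which link integrins to actin, 4 were higher and 4 lower in WT and 4 and 2 in AMPK KO. Ptk2, the focal adhesion kinase, fell in both, with a log2 fold change of -0.57 (edgeR adjusted p = 6.1e-12) in WT and -0.36 (edgeR adjusted p = 1.8e-08) in AMPK KO, and Lims2 rose in both, at 1.18 (edgeR adjusted p = 0.00034) and 2.16 (edgeR adjusted p = 2e-06). Of 18 tested non-laminin ligands, 4 were higher and 2 lower in WT and 4 and 1 in AMPK KO. Fn1, fibronectin, rose, with a log2 fold change of 0.84 (edgeR adjusted p = 4.3e-09) in WT and 0.68 (edgeR adjusted p = 1.9e-07) in AMPK KO.

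Basement membrane partners of laminins were called higher for 4 and lower for 4 of 16 tested in WT with torin1, and for 2 and 5 in AMPK KO. Col4a1, a chain of type IV collagen, fell with a log2 fold change of -0.96 (edgeR adjusted p = 1.1e-07) in WT and -0.69 (edgeR adjusted p = 1.5e-05) in AMPK KO, while Lamb1 and Lamb2 rose. Of 11 tested non-integrin laminin receptors, 3 were higher and 2 lower in WT and 2 and 2 in AMPK KO. The syndecan Sdc1 fell in both (log2 fold changes -0.62 and -0.86, with edgeR adjusted p = 8.1e-07 and adjusted p = 7.7e-09) and the sarcoglycan Sgce rose in both (log2 fold changes 0.61 and 0.57, with edgeR adjusted p = 1.1e-08 and adjusted p = 1.7e-07). Of 12 tested integrin inhibitors and traffic genes, 5 were called in WT, all lower, and 1 higher and 2 lower in AMPK KO, and the recycling GTPase Rab11a fell in both (log2 fold changes -0.47 and -0.29, with edgeR adjusted p = 9.2e-09 and adjusted p = 1.6e-05).

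With MK-8722 in WT, where 10.0% of all genes were called higher and 5.66% lower, the calls were 3 higher and 1 lower among the adaptors and kinases, 2 and 1 among the inhibitors and traffic genes, 3 among the non-laminin ligands and 1 among the laminin receptors, these last all higher. The basement membrane partners gave 0 calls by edgeR, with 2 at an unadjusted p under 0.05, beside 5989 of all 15828 genes. The ligands Ccn1 and Ccn2, matricellular proteins, rose with log2 fold changes of 0.87 (edgeR adjusted p = 5.4e-06) and 0.96 (edgeR adjusted p = 0.00032), and the adaptor Tns1 with 0.87 (edgeR adjusted p = 3.3e-07). In AMPK KO, MK-8722 gave 0 calls by edgeR in all 5 lists. Of a list, 0 to 7 genes had an unadjusted p under 0.05 by edgeR, beside 2610 of all 15828 genes.

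Between the genotypes in DMSO, most calls in 4 of the 5 lists were lower in AMPK KO: 16 lower and 5 higher among the adaptors and kinases, 12 and 3 among the ligands, 6 and 2 among the laminin receptors and 7 and 2 among the inhibitors and traffic genes. Of all genes, 30.9% were called higher and 26.0% lower. Median log2 differences were -0.42, -0.90, -0.44 and -0.33, beside 0.02 over all genes. Among the basement membrane partners 7 were higher and 4 lower, with a median of 0.16. The largest differences included Col4a6, a chain of type IV collagen, at 8.69 (edgeR adjusted p = 4.2e-20), from a WT DMSO mean of 0.0978 CPM to 41.05 CPM in AMPK KO. The sarcoglycan Sgcd differed by -6.94 (edgeR adjusted p = 2.3e-16), from 7.22 CPM in WT to 0.0553 CPM in AMPK KO, and both low means rest on a few counts per library. Col4a6 averaged at most 0.157 CPM in any WT group and Sgcd at most 0.0756 CPM in any AMPK KO group. The lower limit on counts can thus have partly set the direction of both. The lists and their sizes were set with earlier results of these data known.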

How the data were processed

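Poly(A) RNA of 24 MEF libraries (6 groups of 4) was sequenced by the authors as 52-bp read pairs, and per the labels STAR and Salmon were used with GRCm38. The tables as deposited hold estimated counts per gene and per transcript, of which 14.7% of gene values were not whole, and TPM per transcript from the same quantification, also as deposited by the authors. No file used here gives the strand setting.

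Estimated counts were rounded and filtered by group with filterByExpr, which kept 15828 genes holding 99.96% of counts. Libraries were scaled by TMM and fitted with edgeR 4.0.16 (R 4.3.3, limma 3.58.1) as 6 group means over all 24 libraries, with p-values adjusted by the Benjamini-Hochberg method. The SE is the log2 fold change divided by the square root of F, and 95% intervals use 18 residual degrees of freedom. TPM of a gene was summed over its transcripts. DESeq2 1.42.0, Python 3.11.15, pandas 2.3.3, numpy 2.4.6 and matplotlib 3.10.9 were also used. The fit was tested on simulated data.

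Values in every library were given for, in each comparison, up to 4 called genes with the largest rise and up to 4 with the largest fall among those averaging at least 1 CPM, and for the gene of highest TPM in each of the 5 classes, 17 genes in all. Besides the 36 genes described, 1 that met the symbol rule is not reported here and is in none of the counts over these genes. Other genes are named because the whole family is accounted for. The members and lists were chosen with earlier results of these data known. Alternatives were other scalings, filters, DESeq2, blocks for replicate number and for passage, only the groups compared, a transcript length offset, other thresholds and leaving out each library. Counting error at these depths limits genes of few counts, and replicates of 1 group differed by more than sampling noise.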

Additional observations from a re-analysis of the deposited data

Results flagged for a closer look

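Among the 6 groups of 4 libraries of each of the 17 genes given in full, 7 groups held a library whose gap to the nearest other was too large by Dixon's 95% criterion. Chance flags about 1 in 20 such groups. In WT MK-8722, replicate 1 was apart for 2 genes: Itga11 at 7.44 CPM (others 1.10 to 1.96) and Itga7 at 15.5 CPM (others 13.3 to 13.7). That library is of passage 13, and its part in these values was not tested.

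In WT torin1, Itga6 was 418 CPM in replicate 4 (others 287 to 303), Itgb1 was 1129 CPM in replicate 1 (others 1256 to 1270) and Itgb4 was 2.35 CPM in replicate 2 (others 1.27 to 1.34). In AMPK KO torin1, Itgb4 was 10.2 CPM in replicate 3 (others 7.86 to 8.11). In WT DMSO, Lamb1 was 381 CPM in replicate 4 (others 326 to 335).

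The change with torin1 differed between the genotypes by the interaction test of edgeR for 2 genes. The log2 interaction was -1.09 for Itga2 (adjusted p = 0.046) and -0.97 for Itga7 (adjusted p = 7.3e-05).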

How the results depend on the processing

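Over 587 alternative fits of 34 called differences of the genes given in full, 558 kept direction and call, 29 kept direction and lost the call, and 0 reversed. Of the 34, 8 lost their call in at least 1 fit, as given beside them. The causes were not tested.

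A filter of at least 10 counts in every library, which left 20 genes, gave 5 calls for MK-8722 in WT in place of 3, 10 between genotypes in place of 16 and 1 for the MK-8722 interaction in place of 0. Of all 12371 genes under that filter, 2338, 6826 and 2038 were called in these comparisons, against 2483, 9007 and 2023 of 15828. With no filter the MK-8722 interaction gave 1 call, and with DESeq2 also 1, where 1887 of 31103 and 2126 of 15828 genes were called. FC 1.5 gave 0 calls for MK-8722 in WT by edgeR, and with torin1 10 calls in place of 17 in WT and 5 in place of 10 in AMPK KO. How many of all genes were called at FC 1.5 is not given here. Fitting only the groups compared gave 1 call for MK-8722 in AMPK KO, and the transcript length offset gave 1 call for the torin1 interaction in place of 2. Of all genes, 345 of 14731 and 793 of 15828 were called in those fits.

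Replicate numbers did not pair the samples: deviations of libraries with the same number within a genotype correlated by -0.196 to 0.250, with 4 of 24 pairs over 0.1. A replicate block gave 5 calls for MK-8722 in WT, 17 between genotypes, 1 for the torin1 interaction and, with torin1, 18 in WT and 10 in AMPK KO. Of all 15828 genes, 2457, 8989, 1086, 7527 and 6868 were called in these comparisons with that block. Libraries of the same passage correlated by -0.011 to 0.367, with 15 of 24 pairs over 0.1. The main fit held no term for passage. A passage block gave 7 calls for MK-8722 in WT (6 higher), 3 for MK-8722 in AMPK KO (2 higher) and 4 for its interaction (2 higher). None of the 17 torin1 calls in WT, 10 in AMPK KO or 2 for the torin1 interaction was lost with this block. Of all 15828 genes, it called 7845, 7251 and 1861 in these 3 torin1 comparisons. Torin1 calls that it added among these families are not given here.

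Leaving out 1 library gave 2 to 6 calls for MK-8722 in WT, 0 to 0 in AMPK KO, 15 to 20 for torin1 in WT, 8 to 11 in AMPK KO, 15 to 18 between genotypes, 0 to 2 for the MK-8722 interaction and 1 to 3 for the torin1 interaction. How many of all genes were called in these fits is not given here, so the ranges cannot be set against those of all genes.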

Other observations

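The 7 genes left out of the tests held few counts in every library: at most 1 for Itgad and Itgax, 4 for Itgal, 5 for Lama1, 6 for Itgae, 8 for Itgam and 10 for Itgb6. These include the leukocyte subunits Itgad, Itgal, Itgam and Itgax and the mucosal subunit Itgae. They were not tested for differences.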
